A study of Arabidopsis thaliana with 14 samples.

Results

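The binding of ARR10 and of ARR1 was compared after 4 h of cytokinin, over the peak lists ARR10_BA and ARR1_BA of a chromatin immunoprecipitation sequencing (ChIP-seq) study of Arabidopsis thaliana. A peak was kept when its score, the −log10 of the peak caller's p-value, was at least 16, which is the cutoff of the study. Peaks within 50 kb of the ARR10 gene (AT4G31920) or the ARR1 gene (AT3G16857) were left out, since the tagged copies of these genes were added to the plants. This kept 5888 of 8680 peaks in ARR10_BA and 4567 of 7846 peaks in ARR1_BA. The 10 lists of the series hold 44261 peaks above the same cutoff. The kept peaks covered 7.31% of the nuclear genome in ARR10_BA and 5.66% in ARR1_BA, at median widths of 1154 bp and 1171 bp. Median scores were 27.4 in ARR10_BA and 25.4 in ARR1_BA, and median fold enrichments over input were 3.47 and 2.57. At the cutoff, the lowest peak kept had a score of 16 in each list, and the highest peak below it had 15.94 in ARR10_BA and 15.95 in ARR1_BA.

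Both lists came from whole seedlings 3 days old, grown in long days and treated with 10 µM 6-benzylaminopurine (6-BA), a synthetic cytokinin, for 4 h. By the labels, one list came from plants with ARR10-Ypet and the other from plants with ARR1.2-Ypet, each gene fused at its C-terminus to a yellow fluorescent protein inside a large genomic clone and expressed from its own regulatory sequence. Both lines were made in wild-type Columbia plants that kept their untagged ARR10 and ARR1 genes. Each file is 1 list, made by combining at least 2 biological replicates before deposit, so a difference between ARR10_BA and ARR1_BA has no replicate check. The read depth is unknown. The other 8 lists served for look-up: ARR10 without 6-BA (ARR10_m), ARR1 without 6-BA in long days (ARR1_m) and in etiolated seedlings, ARR1 after 3 days of 6-BA, ARR1 without its receiver domain (ARR1ΔDDK) with dexamethasone, ARR12 labelled with and without 6-BA, and ARR14 after 3 days of 6-BA.

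Cytokinin is perceived by histidine kinase receptors, and the signal passes through histidine phosphotransfer proteins to the nucleus. There it reaches the type-B response regulators (B-ARRs), transcription factors with a receiver domain and a MYB-like DNA-binding domain, of which ARR1, ARR10 and ARR12 are the members best known for cytokinin responses in seedlings. Their best known targets are the type-A response regulators (A-ARRs), which lack the DNA-binding domain and dampen the same pathway.

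The sequences below show what lay under the summits that carry the comparison. They are windows of 100 bp centred on the summit, read from the + strand of the TAIR10.1 assembly, for the 3 shared peaks with the highest scores in both lists, the 3 highest peaks of ARR10_BA alone and 2 of the 3 highest of ARR1_BA alone. Capitals mark any of the 6 hexamers of the study's 6-BA motif, which are AGATAC and AGATAT, then AGATCC and AGATCT, and last AGATTC and AGATTT, on either strand. AGATCT is its own reverse complement. The window of the remaining ARR1_BA peak, at the phosphoglycerate mutase gene iPGAM2, lies in an exon outside the coding sequence, held none of the hexamers and is not printed.
Shared, between EBF1 and AT2G25482, no annotated gene, chr2:10847161-10847260: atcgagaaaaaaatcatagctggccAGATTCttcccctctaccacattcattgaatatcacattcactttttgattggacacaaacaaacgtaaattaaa
Shared, upstream of ARR4, chr1:3444733-3444832: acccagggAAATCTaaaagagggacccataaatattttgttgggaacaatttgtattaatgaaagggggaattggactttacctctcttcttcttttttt
Shared, upstream of AT1G49500, chr1:18323434-18323533: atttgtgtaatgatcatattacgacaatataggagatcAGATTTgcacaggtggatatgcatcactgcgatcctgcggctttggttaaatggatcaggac
ARR10_BA alone, upstream of ICS2, chr1:6513479-6513578: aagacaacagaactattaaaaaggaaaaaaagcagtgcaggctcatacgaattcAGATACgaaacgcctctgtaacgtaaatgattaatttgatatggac
ARR10_BA alone, upstream of LOV1, chr2:644410-644509: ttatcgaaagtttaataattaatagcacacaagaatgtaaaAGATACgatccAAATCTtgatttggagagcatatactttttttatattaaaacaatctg
ARR10_BA alone, downstream of the pseudogene AT1G70885, chr1:26724463-26724562: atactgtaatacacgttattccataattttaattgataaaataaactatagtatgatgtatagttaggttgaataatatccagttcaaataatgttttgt
ARR1_BA alone, coding sequence of AT1G15670, chr1:5390478-5390577: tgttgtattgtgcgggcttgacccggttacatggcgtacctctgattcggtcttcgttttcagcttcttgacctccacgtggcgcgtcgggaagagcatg
ARR1_BA alone, coding sequence of CKX3, chr5:23045759-23045858: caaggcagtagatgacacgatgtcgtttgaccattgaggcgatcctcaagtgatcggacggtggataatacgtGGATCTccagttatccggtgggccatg
All 3 shared windows and 2 of the 3 windows of ARR10_BA alone held a hexamer within 50 bp of the summit. The CKX3 window of ARR1_BA held 1 and the AT1G15670 window held none.

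A plant line that carries a large clone has extra copies of the stretch around its tagged gene, so the cover of each tagged locus by peaks served as a check of the labels. The lists labelled ARR10 went against their label in it. Within 50 kb of the ARR1 gene (chr3:5705714-5809443), peaks of any score covered 52.2% of the sequence in ARR10_BA, 54.2% in ARR10_m and 40.2% in ARR1_BA. The ARR1 lists of ARR1_m, etiolated seedlings and 3 days of 6-BA covered between 35.03% and 49.8% there, ARR1ΔDDK covered 4.76%, and the lists labelled ARR12 or ARR14, from other tagged lines, between 3.03% and 16.5%. Within 50 kb of the ARR10 gene (chr4:15394053-15497042), peaks covered 17.03% in ARR10_BA and 15.1% in ARR1_BA, with 5.28% to 21.6% in the other lists. The lists labelled ARR12 did mark their own locus, with 63.7% and 61.4% of the ARR12 surroundings under peaks, against at most 10.2% in any other list. In ARR10_BA a run of peaks thus lay over the locus of ARR1, and none of comparable length lay over the locus of ARR10.

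**Figure D1:**
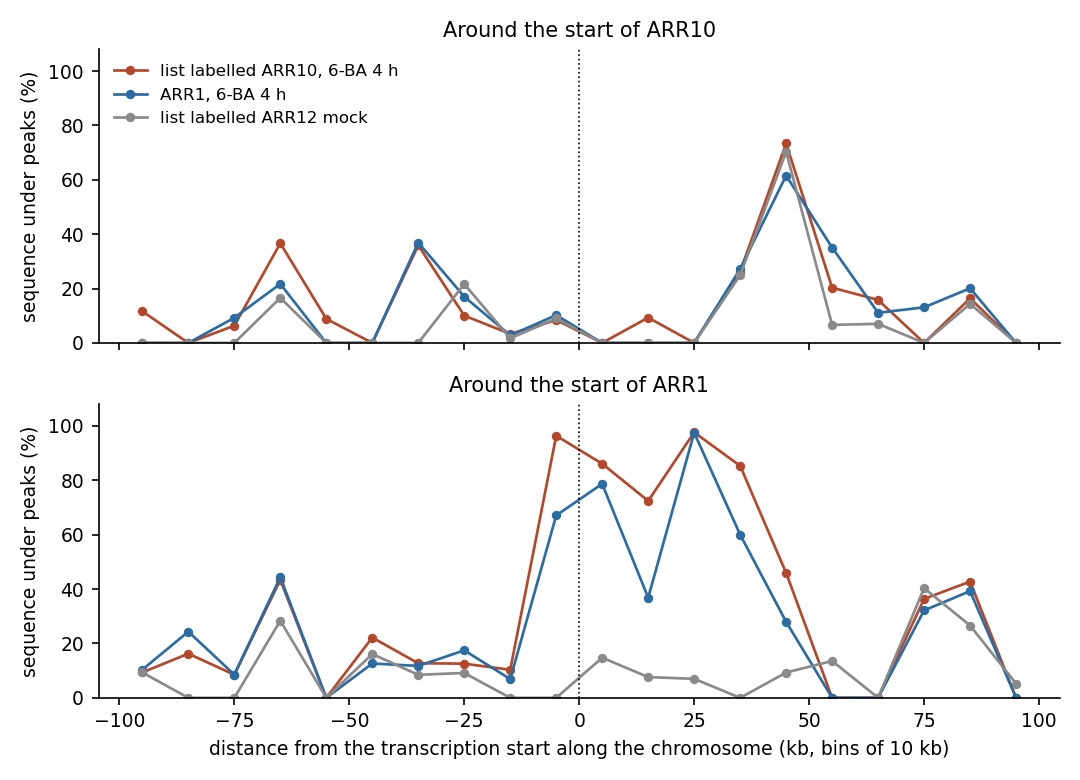
Percent of sequence under peaks of any score in bins of 10 kb, by distance in kb from the start of the ARR10 gene (above) and of the ARR1 gene (below), in the list labelled ARR10 (red), ARR1_BA (blue) and, as a list from another tagged line, the list labelled ARR12 without 6-BA (grey). From 10 kb before to 40 kb past the start of ARR1 the list labelled ARR10 covered 72.4% to 97.6% of each bin, while the first 10 kb past the start of ARR10 held no peak in any of the 3 lists.

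ARR10_BA below is therefore the list labelled ARR10, and every direction or agreement drawn between ARR10 and ARR1 rests on that label. Whether the libraries labelled ARR10 hold DNA from plants with the ARR1 clone was not tested. All results left out the peaks within 50 kb of both genes, 19 in ARR10_BA and 13 in ARR1_BA. With these peaks put back, the shared fractions were 68.1% and 89.5%, which are the values without them. So few peaks could hardly move these fractions, and their return says nothing on which DNA the libraries hold.

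The first question was how far the lists labelled ARR10 and ARR1 held the same places. Most ARR1_BA peaks lay under an ARR10_BA peak, while nearly 1 in 3 ARR10_BA peaks had no kept ARR1_BA peak. Of the ARR10_BA peaks, 4008 of 5888 (68.1%, 95% Wilson interval 66.9% to 69.2%) overlapped a kept ARR1_BA peak by at least 1 bp. Of the ARR1_BA peaks, 4086 of 4567 (89.5%, 88.5% to 90.3%) overlapped a kept ARR10_BA peak. Intervals here and below cover counting error only, and with 1 list for each factor the fractions were described, not tested.
Most of the remainder overlapped a peak under the cutoff in the other list. Of the 1880 peaks of ARR10_BA alone, 1171 (62.3%) overlapped an ARR1_BA peak with a score under 16, whose median was 13.1 and whose range was 9.85 to 15.95. Only the other 709 peaks, 12.0% of ARR10_BA, had no deposited ARR1_BA peak at all. Of the 481 peaks of ARR1_BA alone, 350 (72.8%) overlapped an ARR10_BA peak under 16 with a median score of 13.6, and 131, or 2.87% of ARR1_BA, overlapped none.

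Peaks of 1 list alone were weak. Their median score was 20.7 in ARR10_BA alone and 18.2 in ARR1_BA alone, against 33.0 and 27.0 for the shared peaks of the same lists. Scores of at least 30 were reached by 223 peaks of ARR10_BA alone (11.9%) and by 10 peaks of ARR1_BA alone (2.08%). In the top 10% of ARR10_BA by score, 99.7% of peaks overlapped a kept ARR1_BA peak, and in the bottom 10% of the list 30.8% did. In ARR1_BA all of the top 10% overlapped (100%) and 66.2% of the bottom 10%. The lists differ in length, so the overlap of equal numbers of top peaks was also taken. Of the top 1000 peaks of each list, 69.2% of ARR10_BA and 69.8% of ARR1_BA overlapped one another, and for the top 4000 the values were 76.9% and 79.0%.

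The share of overlapping peaks moved with the base composition of the summit, and in opposite directions in the lists. Where the 200 bp around the summit held under 30% G and C, 44.9% of 873 ARR10_BA peaks overlapped a kept ARR1_BA peak, against 98.8% of 167 ARR1_BA peaks that overlapped an ARR10_BA peak. The shares were 63.2% of ARR10_BA and 93.2% of ARR1_BA at 30 to 35% GC, and 75.1% and 89.3% at 35 to 40%. At 40% GC and above they were close, at 83.7% of 1248 ARR10_BA peaks and 85.4% of 1510 ARR1_BA peaks. The median GC content was 32.5% at summits of ARR10_BA alone and 39.0% at those of ARR1_BA alone. It was 35.5% at shared ARR10_BA summits and 37% at shared ARR1_BA summits, beside 36.5% in windows across the genome. The part of library preparation or sequencing in this difference in GC was not tested.

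**Figure D2:**
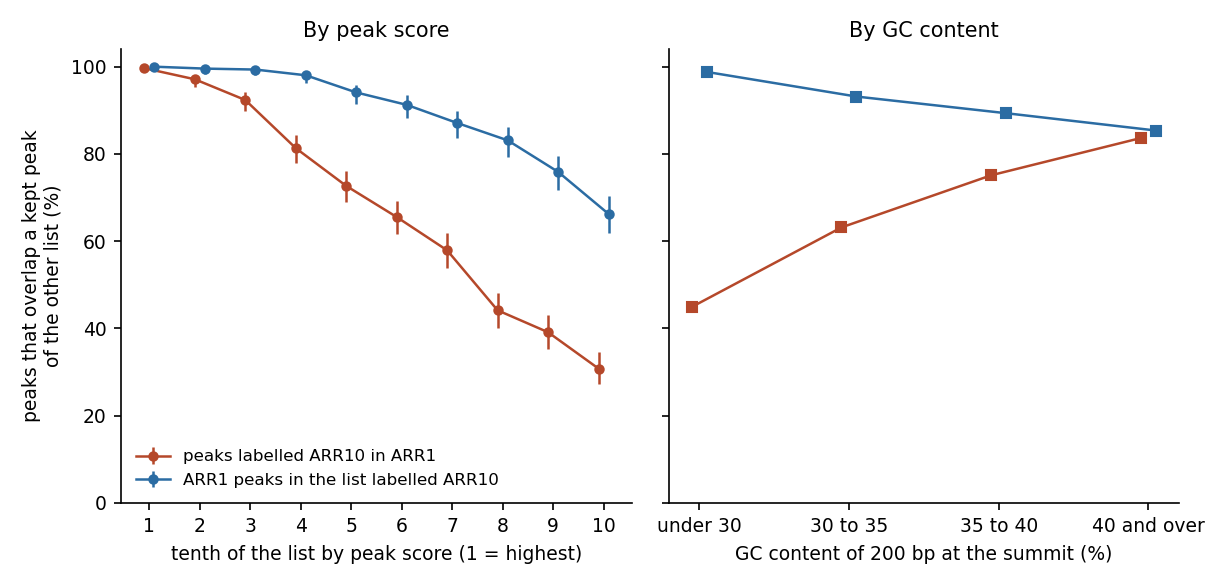
Percent of kept peaks that overlap a kept peak of the other list, for ARR10_BA (red) and ARR1_BA (blue), by the list's own score in 10 equal steps from highest to lowest (left) and by percent G and C in 200 bp at the summit (right), with bars for 95% Wilson intervals on the left. Both curves go down with the score, and the ARR10_BA curve goes up with GC content to meet that of ARR1_BA at 40% and above.

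The shared peaks were then compared by strength. Matching each peak with its best-scoring overlap gave 3887 pairs, in which high scores in ARR10_BA mostly went with high scores in ARR1_BA. Across pairs, which lie on 1 genome and were called against input, Spearman's correlation of the scores was 0.706, that of the fold enrichments 0.672 and that of the peak widths 0.733. Of the 389 pairs in the top 10% of one list, 253 (65.0%) were in the top 10% of both. Within ranges of score the correlation was lower, at 0.625 in the 1446 pairs with both scores at least 30 and at 0.262 in the other 2441. Both cuts narrow the range of scores, and the second leaves out every pair with both scores high. That by itself lowers a correlation, so 0.262 is no measure of how weaker peaks compare.
The score was higher in ARR10_BA in 2780 pairs (71.5%), with a median ratio of ARR10_BA over ARR1_BA of 1.16. A ratio of at least 2 was seen in 159 pairs (4.09%), and a ratio of 0.5 or less in 13 (0.334%). The score depends on depth as well as on enrichment, so a ratio of scores compares the lists and not amounts of bound protein. The ratio also moved with GC content, with a median of 1.49 under 30% GC, 1.26 at 30 to 35%, 1.13 at 35 to 40% and 1.03 at 40% and above, and a Spearman's correlation of −0.376 across pairs.

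**Figure D3:**
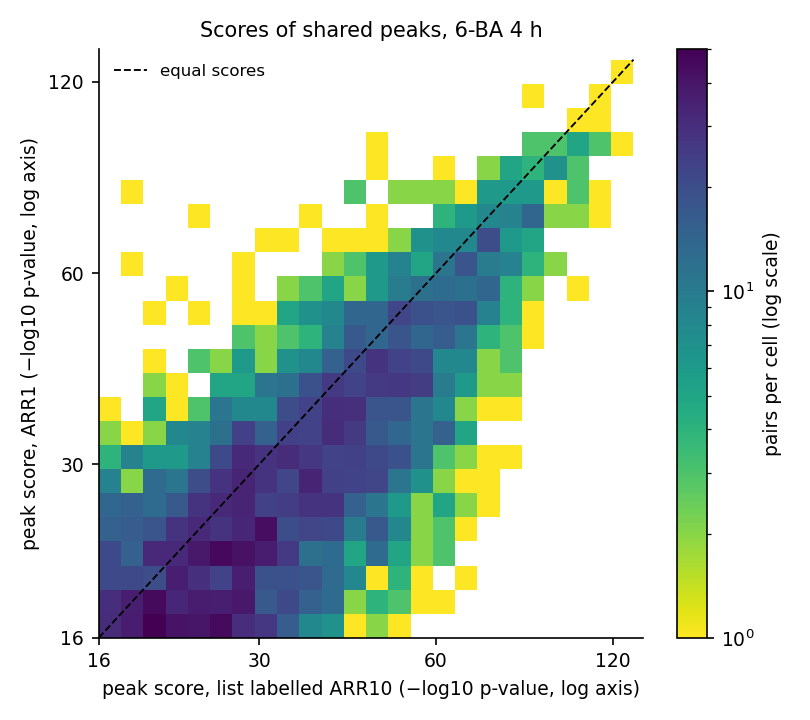
Scores (−log10 p) of the 3887 matched pairs in ARR10_BA (x axis) and ARR1_BA (y axis), both axes logarithmic, with colour for the number of pairs in a cell and a dashed line for equal scores. The pairs follow the line with a Spearman's correlation of 0.706 and 71.5% of them lie on its ARR10_BA side.

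The pair of ARR10_BA and ARR1_BA was set beside other pairs of lists that hold either factor. Spearman's correlation of the scores was 0.616 between ARR10_BA and ARR10_m, 0.535 between ARR1 after 3 days of 6-BA and ARR1_BA, 0.462 between ARR10_BA and ARR1 after 3 days, and 0.638 between ARR10_m and ARR1_BA. Of these 5 pairs, ARR10_BA with ARR1_BA had the highest correlation, while ARR1_m and the etiolated ARR1 list were not compared in this way. The pairs share lists, and the differences in correlation were not tested.

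The strongest shared places included peaks next to EBF1, ARR4 and CKX5. The highest peak of both lists, at 128.39 in ARR10_BA and 120.42 in ARR1_BA, had its summit at the same base, between AT2G25482, a gene annotated as prolamin-like, and EBF1, an F-box gene for a protein that targets the ethylene factor EIN3 for degradation. ARR4, an A-ARR, scored 115.79 in ARR10_BA and 112.5 in ARR1_BA with summits 24 bp apart. The peak at UBC16, a ubiquitin-conjugating enzyme gene that lies next to the cytokinin oxidase gene CKX5, scored 108.59 and 107.55, with summits 2259 bp apart. ACR8, with ACT domain repeats, scored 107.89 and 98.55, and the glutaredoxin gene GRXS13 99.3 and 94.47, with summits 4 bp and 59 bp apart. Scores of 114.02 and 107.55 were found at AT1G49500, of 111.38 and 99.92 at the acetamidase-like gene AT4G37550, and of 103.57 and 99.23 at the NAC-domain gene AT1G02210, in ARR10_BA and ARR1_BA in that order. The last of the 10 genes with the highest lower score were SHOT1, of the mitochondrial transcription termination factor family (110.5 in ARR10_BA and 97.86 in ARR1_BA), and the lectin gene AT1G78850 (93.41 and 93.8). In 9 of these 10 genes ARR10_BA had the higher score, and in 9 of 10 the summits were within 100 bp. Among all 5712 genes bound by both, these shares were 68.9% and 77.5%.

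The summits of matched peaks nearly coincided. The median distance between the ARR10_BA and ARR1_BA summits was 37 bp (quartiles 16 and 77 bp), with 61.9% of pairs within 50 bp and 80.4% within 100 bp. In 44 pairs both summits were at the same base. The median was 40 bp in pairs whose lower score was 16 to 20, and 27 bp in those with both scores at least 50. The same median of 37 bp was found between ARR10_BA and ARR10_m and between ARR1 after 3 days of 6-BA and ARR1_BA. The signed distance had a median of −3 bp along the chromosome, and the ARR10_BA summit was at the higher coordinate in 1796 pairs, 46.7% of those with unequal summits. Upstream of genes the ARR10_BA summit was the nearer one to the gene in 747 of 1615 pairs (46.3%). In 140 pairs (3.60%) the summits were over 1000 bp apart, up to 5439 bp at a peak over the UGT73B genes for glycosyltransferases.

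Peaks of 1 list alone were then looked up in the 8 lists that the comparison did not use. Nearly all overlapped a peak of some score in at least 1 of them. Of the 1880 peaks of ARR10_BA alone, 87.3% (85.8% to 88.8%) overlapped a deposited peak of ARR10_m and 70.5% (68.4% to 72.5%) one of ARR1 after 3 days of 6-BA, while 95.7% were in at least 1 other list. Of the 481 peaks of ARR1_BA alone, 89.2% (86.1% to 91.7%) overlapped a peak of ARR10_m and 86.1% one of ARR1 after 3 days, while 98.5% were in at least 1 other list. These values count peaks of any score in the other lists, which in ARR10_m go down to 6.72. At the cutoff of 16, ARR10_m held 31.8% of the peaks of ARR10_BA alone and 33.3% of those of ARR1_BA alone, and ARR1 after 3 days held 63.5% and 78.0%. Among the 709 peaks of ARR10_BA with no deposited ARR1_BA peak, 57.3% were in the ARR1 list after 3 days and 62.1% in any other ARR1 list. Among the 131 of ARR1_BA with no ARR10_BA peak, 85.5% were in ARR10_m.
The lists differ in length, from 1513 to 11499 peaks, and the shares follow that length in part. For shared peaks the same look-up gave 97.6% in ARR10_m, 95.4% in ARR1 after 3 days and 84.7% in ARR14, against 60.2% in ARR14 for peaks of ARR10_BA alone and 74.8% for those of ARR1_BA alone. In ARR10_m the overlapping peaks had median scores of 13.96 for peaks of ARR10_BA alone, 14.01 for peaks of ARR1_BA alone and 23.5 for shared peaks.

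**Figure D4:**
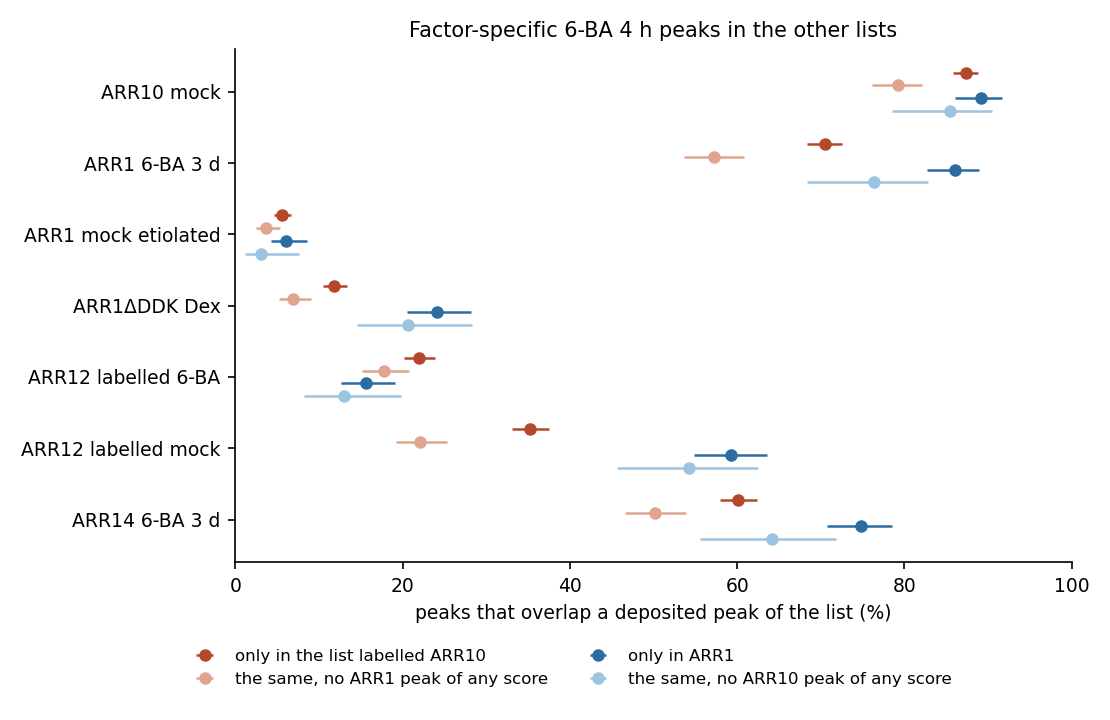
Percent of peaks that overlap a deposited peak in 7 lists not used to define the classes, for peaks of ARR10_BA alone (dark red), peaks of ARR1_BA alone (dark blue) and the part of each with no deposited peak in the other list (light colours), with bars for 95% Wilson intervals. Counting peaks of any score, ARR10_m and ARR1 after 3 days of 6-BA have the highest shares, 87.3% and 70.5% of those of ARR10_BA alone and 89.2% and 86.1% of those of ARR1_BA alone, while at a score of 16 ARR10_m holds 31.8% and 33.3%.

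The highest single peaks differed in how they scored in the other lists. The highest peak of ARR10_BA alone was upstream of ICS2 (chr1:6512248-6514042), for an isochorismate synthase that acts in the making of salicylic acid and phylloquinone. It scored 56.83 in ARR10_BA, 13.46 in ARR1_BA, 22.85 in ARR10_m and 57.76 in ARR1 after 3 days of 6-BA. A peak above the cutoff at ICS2 was thus present in a list labelled ARR1. Its score there is not on the same scale, since the treatment time differs and the depth is unknown. LOV1, a NAC-domain gene (chr2:642815-644996), had 55.4 in ARR10_BA, 14.95 in ARR1_BA and 13.46 in ARR1 after 3 days, and the squalene monooxygenase gene SQP2 had 53.98, 14.95 and 27.43. RVE1, for a MYB-like factor that links the clock to auxin, had 51.88 in ARR10_BA, 12.94 in ARR1_BA and 41.65 in ARR1 after 3 days. PSBO2, for a subunit of the oxygen-evolving complex of photosystem II, had 49.83 in ARR10_BA, 12.89 in ARR1_BA and 41.4 in ARR1 after 3 days, and CDPK6, for a calcium-dependent protein kinase, 47.81, 10.83 and 60.26. All 10 of the highest peaks of ARR10_BA alone overlapped a deposited ARR1_BA peak below the cutoff.
The highest peak of ARR1_BA alone was inside iPGAM2 (chr3:2606641-2611629), a phosphoglycerate mutase gene of glycolysis, with 15.31 in ARR10_BA and 44.21 in ARR1_BA. ARR10_m held the same place at 26.6, so a score above the cutoff was present under the ARR10 label as well. AT1G15670, a kelch-repeat gene (chr1:5389965-5391767), had 12.28 in ARR10_BA, 39.33 in ARR1_BA and 32 in ARR10_m. The third was inside CKX3 (chr5:23044953-23046581), a gene for a cytokinin oxidase, which degrades cytokinin, at 36.06 in ARR1_BA and with no peak of any score in ARR10_BA or ARR10_m. The CKX3 place had 28.05 in ARR1 after 3 days and 33.81 in ARR14. AFP1, whose protein binds the abscisic acid factor ABI5, had 30.7 in ARR1_BA, 36.07 in ARR1 after 3 days and no peak in ARR10_BA or ARR10_m. UGT71B6, for an abscisic acid glucosyltransferase, had 12.24 in ARR10_BA and 34.92 in ARR1_BA, and the peroxidase gene AT5G39580 14.77 and 34.5.

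The classes differed in where their summits lay. Summits of ARR10_BA alone were upstream of the nearest gene within 1.5 kb in 38.6% and inside it in 31.6%. Those of ARR1_BA alone were so in 29.3% and 49.7%. Shared peaks had 35.6% and 37.3% at their ARR10_BA summits, and 32.7% and 39.8% at their ARR1_BA summits. Summits within 250 bp of a transcription start site (TSS) made up 36.1% (34.0% to 38.3%) of ARR10_BA alone. The share was 50.7% (46.3% to 55.2%) for ARR1_BA alone, 39.4% at shared ARR10_BA summits and 38.1% at shared ARR1_BA summits. Among peaks with scores of 16 to 30 the TSS shares were 37.5% of ARR10_BA alone, 51.2% of ARR1_BA alone, and 44.8% and 39.1% at shared ARR10_BA and ARR1_BA summits, though the median scores in that range still differed, at 20.1, 18.2, 23.0 and 21.7. Summits over 1.5 kb from any gene were 10.7% of ARR10_BA alone and 5.61% of ARR1_BA alone.

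The 6-BA motif was read in the 200 bp around each summit, in which 59.5% of windows across the genome and 58.1% of the 200 bp before gene starts hold at least 1 of the 6 hexamers. The motif was in 70.6% (68.5% to 72.6%) of windows of ARR10_BA alone, in 60.9% (56.5% to 65.2%) of ARR1_BA alone and in 72.4% (71.0% to 73.8%) of windows at shared ARR10_BA summits, against 69.0% at shared ARR1_BA summits. Over all GC contents, the windows of ARR1_BA alone were thus near the genome share. In 100 bp the shares were 49.5%, 36.8% and 51.4% (shared ARR10_BA summits, as in the ranges of GC). The share was 46.5% at shared ARR1_BA summits and 36.2% across the genome. The nearest hexamer was at a median of 48 bp from summits of ARR10_BA alone and 74 bp from those of ARR1_BA alone. The median was 45 bp from shared ARR10_BA summits, 53 bp from shared ARR1_BA summits and 74 bp from the centres of windows across the genome. The hexamers are rich in A and T and the classes differ in GC content, so the shares were also taken within ranges of GC. At 30 to 35% GC the motif was in 71.9% of ARR10_BA alone, 65.6% of ARR1_BA alone and 75.8% of shared windows, at 35 to 40% in 64.4%, 64.3% and 72.8%, and at 40% and above in 62.7%, 56.1% and 62.1%. Windows across the genome held the motif in 61.5%, 61.4% and 55.3% in these ranges. At 35 to 40% GC both classes of 1 list alone were about equally near the genome share. Under 30% GC the motif was in 76.9% of ARR10_BA alone and 87.0% of shared windows, with 61.5% across the genome. Between the classes of 1 list alone, the difference was smaller in the ranges from 30% GC up than without ranges.
Pairs whose summits were 51 to 500 bp apart give a comparison within the same peak. In these 1201 pairs the ARR10_BA summit was the nearer one to a hexamer in 684 (57.0%) and the ARR1_BA summit in 506 (42.1%), at median distances of 47 bp and 63 bp. GC content moved with this, since it was lower at the ARR10_BA summit in 806 pairs (67.1%) and at the ARR1_BA summit in 344, and its part in the distances was not tested. The G-box CACGTG, the element of bHLH and bZIP factors, was in 9.73% of windows of ARR10_BA alone, 19.5% of ARR1_BA alone and 17.5% of windows at shared ARR10_BA summits, against 19.5% at shared ARR1_BA summits and 2.20% of genome windows. At 35 to 40% GC the G-box shares were 12.4%, 17.9% and 17.9%, at 30 to 35% they were 6.56%, 6.67% and 8.24%, and at 40% and above 31.9%, 26.2% and 34.6%. The order of ARR10_BA alone and ARR1_BA alone thus turned at 40% GC and above, a range with 221 of the 481 peaks of ARR1_BA alone. A match of these letters is a description and no evidence of a bound site.

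Peaks were assigned to a gene when the summit was inside it or within 1.5 kb of it. Of 37899 nuclear genes, 8078 (21.3%) were targets in ARR10_BA, 6609 (17.4%) in ARR1_BA and 5712 (15.1%) in both. The 5712 are 70.7% of the ARR10_BA targets and 86.4% of the ARR1_BA targets. Each gene took the score of its highest peak, and genes were ranked within each list, so that a low percentile is a strong target. The median difference between the percentiles of a gene bound by both was 12.4 points, and 225 genes (3.94%) were over 50 points apart. The top 10% of targets, with scores of at least 56.11 in ARR10_BA and 52.52 in ARR1_BA, shared 464 genes, which are 57.3% and 70.0% of them.

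The A-ARRs had high scores in both lists. Of the 10, 9 were assigned a peak in ARR10_BA and 10 in ARR1_BA, where the shares of all genes are 21.3% and 17.4%, at median percentiles of 1.14 and 4.61. ARR5 scored 118.14 in ARR10_BA and 71.84 in ARR1_BA at the same summit base, ARR15 104.43 and 79.39 with summits 39 bp apart, and ARR9 99.28 and 87.7 with summits 42 bp apart. ARR7 had 86.41 in ARR10_BA and 81.92 in ARR1_BA, and ARR16 84.37 and 59.9, with summits 44 and 72 bp apart. ARR6 had 72.5 and 56.45 with summits 856 bp apart, ARR3 61.19 and 39.83, and ARR17, the member with the largest difference in rank, 54.69 and 29.34, at percentiles of 10.5 in ARR10_BA and 40.7 in ARR1_BA. The score was higher in ARR10_BA in 9 of the 9 A-ARRs bound by both, and 8 of 9 also ranked higher there.
ARR8 (chr2:17221840-17224880) was assigned in ARR1_BA alone, at 23.3. The ARR1_BA peak, however, overlapped a single ARR10_BA peak of 9078 bp with a score of 104.43, whose summit was 2835 bp from the edge of the gene. ARR8 was therefore not free of ARR10_BA signal, and its missing score came from the place of 1 summit.

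**Figure D5:**
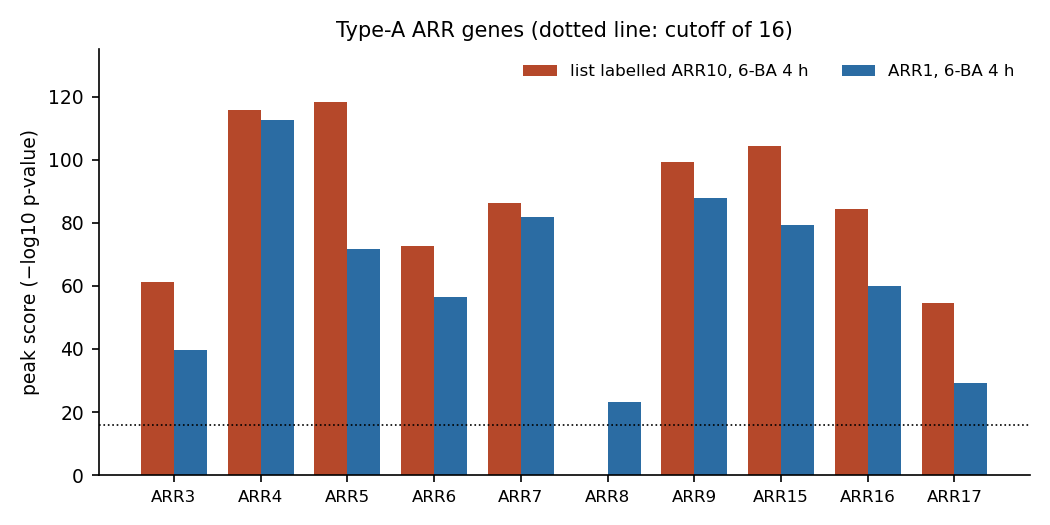
Score (−log10 p) of the peak assigned to each of the 10 type-A ARR genes in ARR10_BA (red) and ARR1_BA (blue), as bars from 0, with a dotted line at the cutoff of 16 and no red bar for ARR8. The red bar is the higher one in the 9 genes that have both. Among all 5712 genes bound by both, 68.9% had the higher score in ARR10_BA.

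In the rest of the cytokinin pathway 22 members were targets in both lists, 3 in ARR10_BA alone and 3 in ARR1_BA alone. Among all genes 5712 were targets in both, 2366 in ARR10_BA alone and 897 in ARR1_BA alone. Beside the counts of each family below, 21.3% of all genes were targets in ARR10_BA and 17.4% in ARR1_BA. Among receptors and AHPs, 6 of 8 were targets in ARR10_BA and 4 in ARR1_BA. The receptor gene AHK4 scored 101.85 and 93.13 at the same base, and AHP1, a phosphotransfer protein gene, had 45.06 at percentile 19.0 in ARR10_BA and 28.89 at 42.1 in ARR1_BA. AHP4 (18.73) and AHP5 (16.33) were targets in ARR10_BA alone, of which AHP5 had an ARR1_BA peak of 15.3 and AHP4 had none.
Of the B-ARRs themselves, the same 3 of 9 were targets in both. ARR12 had 24.79 in ARR10_BA and 36.36 in ARR1_BA, at percentiles 61.1 and 26.6. The other two, named after their values were seen, were ARR18 with 32.06 and 41.58 and ARR20 with 28.32 and 25.4. Among the CKX genes, 6 of 7 were targets in ARR10_BA and 5 in ARR1_BA. CKX2 had 37.3 in ARR10_BA and no ARR1_BA peak of any score, and CKX6 had 36.92 and 22.92. At CKX3 the assigned summits were 3936 bp apart, at a position of −1453 bp from the TSS with 33.61 in ARR10_BA and of 2483 bp with 36.06 in ARR1_BA.
The biosynthesis genes of the IPT and LOG families were targets in 6 of 17 cases in ARR10_BA and in 7 in ARR1_BA. LOG6 had 40.48 and 19.33, and IPT3 had 16.72 in ARR1_BA with an ARR10_BA peak of 15.41 close by. The cytokinin response factors (CRFs), AP2/ERF factors, were targets in 4 of 6 cases in ARR10_BA and in 6 in ARR1_BA. CRF3 had 47.07 in ARR10_BA and 25.23 in ARR1_BA. CRF1 had 23.34 in ARR1_BA over an ARR10_BA peak of 10.7, and CRF5 31.62 over an ARR10_BA peak of 51.08 whose summit was 1817 bp from the gene.

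In each of the other hormone lists ARR10_BA had as many targets as ARR1_BA or more, as it has among all genes. There the shares were 21.3% in ARR10_BA and 17.4% in ARR1_BA. In auxin signalling, the same 16 of 29 Aux/IAA repressor genes were targets in both lists. IAA28 ranked 14.2 at 49.8 in ARR10_BA and 67.2 at 21.68 in ARR1_BA, with summits 737 bp apart. Of the PIN auxin transporter genes, 5 of 8 were targets in ARR10_BA and 4 in ARR1_BA, with PIN5 (19.73) in ARR10_BA alone and no ARR1_BA peak there. Of the TIR1/AFB auxin receptors, 4 of 6 were targets in ARR10_BA and 2 in ARR1_BA. AFB3 (18.73) and AFB4 (16.33) were in ARR10_BA alone with no ARR1_BA peak, and AFB2 had 50.42 and 33.59.
Of 11 ethylene genes, 7 were targets in ARR10_BA and 6 in ARR1_BA. EBF2, an F-box gene like EBF1, had 44.26 in ARR10_BA and 59.9 in ARR1_BA, and the receptor gene ERS2 had 22.29 in ARR10_BA over an ARR1_BA peak of 14.61. In gibberellin signalling, 5 of 8 DELLA and GID1 genes were targets in ARR10_BA and 3 in ARR1_BA. The DELLA gene RGL2 (19.59) and the receptor gene GID1C (22.22) were in ARR10_BA with no ARR1_BA peak, and the DELLA gene GAI had 36.31 and 24.98. Of 8 brassinosteroid genes, 5 were targets in ARR10_BA and 4 in ARR1_BA, with the receptor-like gene BRL3 at 32.41 in ARR10_BA and no ARR1_BA peak, and the co-receptor gene BAK1 at 27.75 and 33.02.
The same 8 of 14 PYR/PYL abscisic acid receptor genes were targets in both, PYL1 among them with 25.52 in ARR10_BA and 19.71 in ARR1_BA. Of the JAZ repressors of jasmonate signalling, 10 of 12 were targets in ARR10_BA and 8 in ARR1_BA. JAZ2 (22.29) and JAZ12 (21.25) lay over ARR1_BA peaks of 14.27 and 14.61, and JAZ3 had 39.68 in ARR10_BA and 19.54 in ARR1_BA.

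By their median, the clock genes that were targets stood high in both lists, and they included members with the higher score in ARR1_BA. Of 14, 8 were targets in ARR10_BA and 9 in ARR1_BA, where the shares of all genes are 21.3% and 17.4%. The targets had median percentiles of 5.49 and 6.02, while 4 of the 14 genes were targets in neither list. Of the 7 bound by both, 2 had the higher score in ARR10_BA, where 3935 of all 5712 genes bound by both (68.9%) did. These were ELF4, of the evening complex, with 62.37 in ARR10_BA and 31.89 in ARR1_BA, and PRR5, a clock repressor, with 70.95 and 60.48, which is named here after its values were seen. TOC1 (22.89) and ELF3 (16.5) were assigned in ARR1_BA alone, over ARR10_BA peaks of 12.85 and 11.99, and RVE1 in ARR10_BA alone as above. TOC1 and ELF3 ranked low in ARR1_BA, at percentiles of 61.6 and 95.1.
Of 15 light and greening genes, 12 were targets in ARR10_BA and 10 in ARR1_BA. For these and for the D-type cyclins below, the shares of all genes are 21.3% in ARR10_BA and 17.4% in ARR1_BA. HY5, for a bZIP factor of light responses, had 20.06 in ARR10_BA over an ARR1_BA peak of 15.45, and GLK2, for a factor of chloroplast development, 22.29 with no ARR1_BA peak. GNC, for a GATA factor of greening, had 30.63 in ARR10_BA and 17.82 in ARR1_BA. Of 10 D-type cyclin genes, which act at the entry into the cell cycle, 4 were targets in each list. CYCD4;2 (35.47) was assigned in ARR10_BA alone, over an ARR1_BA peak of 31.16 whose summit was 3710 bp from the gene. CYCD3;2 (20.49) was assigned in ARR1_BA alone, over an ARR10_BA peak of 13.18, and CYCD1;1 had 19.06 in ARR10_BA and 20.81 in ARR1_BA.
In all, 16 members of these lists were assigned in ARR10_BA alone and 7 in ARR1_BA alone, beside 2366 and 897 of all genes. Of the 16, 7 overlapped a deposited ARR1_BA peak and 9 overlapped none. All of the 7 assigned in ARR1_BA alone overlapped a deposited ARR10_BA peak. Counted by peaks and not by genes, 37.7% of all peaks of ARR10_BA alone and 27.2% of those of ARR1_BA alone overlapped none. The 9 without any ARR1_BA peak were AHP4, CKX2, PIN5, AFB3, AFB4, RGL2, GID1C, BRL3 and GLK2.

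Genes in the top 10% of one list that were below the top 50% of the other, or no target there, were few. They numbered 33 for ARR10_BA, 0.0871% of all genes, and 30 for ARR1_BA, 0.0792% of all genes, and came from 27 and 21 peaks. All 27 and all 21 of these peaks overlapped a kept peak of the other list. In the top 10% of all peaks, 99.7% of ARR10_BA and 100% of ARR1_BA did so. In 12 of the 27 and 17 of the 21 the summits of the overlapping peaks were over 500 bp apart, so that the summit of the other list could fall to a neighbouring gene. Among all matched pairs 92.8% had summits within 500 bp, and 17.3% of those with a peak of 2 kb or over had summits farther apart. Distant summits are favoured by the rule for these groups. The ranking for 1 factor only thus came in part from where the summit lay in a broad peak that both lists held.
Other genes in these groups differed in score at 1 site. AT2G19825, a pseudogene, had 67.9 in ARR10_BA and 23.3 in ARR1_BA with summits 3 bp apart, and AT5G46060, of unknown function, 63.92 and 23.67 with summits 8 bp apart. AT3G50800 had 74.83 and 25.37 with summits 215 bp apart. Farther down the same group, CINV1, for a cytosolic invertase that splits sucrose, had 61.92 in ARR10_BA and 25.4 in ARR1_BA, MYB92, for a MYB factor of suberin formation, 61.92 and 21.68, and TUB9, a beta-tubulin gene, 59 and 17.82. Those 3 were chosen after their values were seen. The rule itself selects for such differences. A partner summit within 500 bp was found for 15 of the 27 peaks of ARR10_BA and for 4 of the 21 of ARR1_BA, and the score was at least 2 times that of the partner in 12 of the 15 and in 1 of the 4.
The other top genes for ARR10_BA had partners of like score. AT3G00330, an RNA gene, had 101.85 in ARR10_BA, and the overlapping ARR1_BA peak had 87.15 with its summit 702 bp away. AT1G09557, AT5G62910 (at the ARR6 peak), AT5G08735, PERK1, a receptor-like kinase gene, and SBT5.4, a subtilase gene, scored between 64.66 and 101 in ARR10_BA with ARR1_BA partners between 50.87 and 107.55, at summit distances of 856 to 3680 bp. AT5G61970, annotated as related to the signal recognition particle, had 64.14 and 60.48 with summits 83 bp apart.

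For ARR1_BA the clearest gene was CYP81D8, a cytochrome P450 gene, with 18.33 in ARR10_BA and 63.77 in ARR1_BA and summits 121 bp apart. EXO70B2, for an exocyst subunit with a part in immunity, lay under peaks of 18.73 in ARR10_BA and 82.15 in ARR1_BA, with summits 599 bp apart, and the glycosyltransferase gene AT1G05675 under 23.8 and 73.1, with summits 864 bp apart. CYP81D8 and EXO70B2 also had peaks in ARR10_m, at 32.59 and 25.35, and EXO70B2 one of 41.53 in ARR1 after 3 days of 6-BA, where none was assigned to CYP81D8. At PFT1, a Mediator subunit gene, the peaks had 47.83 in ARR10_BA and 89.13 in ARR1_BA, 562 bp apart, and at the oxygenase gene AT5G43440 34.75 and 66.04, 2158 bp apart. At AT1G09885, an RNA gene, they had 28.32 and 62.23, 1083 bp apart.
In 4 more of the top 10 the ARR10_BA partner was close in score or higher. Some single loci supplied genes to both groups. The pair of peaks at AT3G15220 is the one given above for AT3G00330. That of UGT73B3 also ranked its neighbour UGT73B1 high for ARR10_BA only. The overlapping peaks had 101.85 in ARR10_BA and 87.15 in ARR1_BA at the kinase gene AT3G15220, 108.76 and 71.25 at the RNA gene AT4G07375, 57.81 and 66.39 at the glycosyltransferase gene UGT73B3, and 64.35 and 64.6 at CEP3, a cysteine proteinase gene, with summits 702 to 5439 bp apart. When any part of a peak within 1.5 kb was counted in place of its summit, an alternative chosen after seeing the data, 78 genes ranked high for ARR10_BA only and 35 for ARR1_BA only, of which 12 and 6 were among the genes found by summit.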

How the data were processed

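Peaks were taken from the deposited lists of 10 ChIP-seq experiments of a series with 14 samples. The authors mapped reads with Bowtie (0.12.7, unique hits), called peaks against input with MACS2 (2.0.10) and combined at least 2 biological replicates by the irreproducible discovery rate. The labels' processing notes name the TAIR10 build, and genes and sequences came from RefSeq's TAIR10.1. Deposited values are the ratio of fold enrichment over input, the −log10 of the p-value (the score) and the summit offset in bp as the peak caller wrote them, and a column with that −log10 multiplied by 10 was left unused as a score. No read counts were analysed here, so depth is unknown.

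Overlaps (at least 1 bp), matched pairs, nearest genes and hexamer matches were computed in Python 3.11.15 with NumPy 2.4.6, pandas 2.3.3 and SciPy 1.17.1, and plotted with Matplotlib 3.10.9. On simulated lists the code recovered 1000 of 1000 planted shared peaks, 200 of 200 gene assignments and 150 of 150 motifs. Intervals are 95% Wilson intervals. No test between factors was made, since each has 1 combined list.

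Named genes were all A-ARRs, the 10 with the highest lower score of the lists, the 10 highest peaks of each group ranked high for 1 factor only (top 10% of 1 list, below the top 50% of the other), in each gene list the members bound by 1 factor and the one with the largest rank difference, and the 3 highest peaks of each class for sequence, while other names are examples. One gene that this rule selects is not reported here. The members, gene lists and alternatives were chosen with earlier results of these data known. Alternatives changed the score minimum, the overlap, the peaks left out, the ranking, the gene distance and the motif window.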

Additional observations from a re-analysis of the deposited data

Results flagged for a closer look

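Peaks of the list labelled ARR10 after 4 h of 6-BA covered 52.2% of the 50 kb on either side of the ARR1 gene and the gene itself, a stretch left out of every comparison. This stands out because lists from lines with another tagged gene covered 3.03% to 16.5% of it, while at the ARR10 gene the same list covered 17.03%, within the 5.28% to 21.6% of the other lists. ARR10_m shows the same cover of 54.2%, so both lists labelled ARR10 share it. Whether these libraries hold DNA of the ARR1 line was not tested, and it could not be told from peak lists which protein was precipitated.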

How the results depend on the processing

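Over 53 alternatives of 11 results, 18 values stayed within the counting error or within 1.5 times the count and 35 moved. By the rule used, only a correlation could turn round, and none did. Shares, distances and counts could not. The share of ARR10_BA peaks that overlap an ARR1_BA peak was 75.1% with every deposited peak, 58.2% at a minimum of 30, 77.6% with equal numbers of top peaks, 88.0% with any deposited partner, 58.5% at 50% reciprocal overlap and 54.2% with summits within 100 bp. In the same order the share of ARR1_BA peaks was 85.5%, 87.8%, 80.1%, 97.1%, 75.4% and 69.8%. With equal numbers the shares of the lists were 77.6% and 80.1%. Few kept peaks overlapped over 1 peak of the other list, 188 in ARR10_BA and 120 in ARR1_BA. Lists of equal length thus give near-equal shares by construction, and what lay behind the gap between 68.1% and 89.5% was not tested. Spearman's correlation of the scores was 0.733 with every peak, 0.625 at a minimum of 30, 0.672 for fold enrichment and 0.728 for summits within 100 bp, and the median summit distance 41 bp with every peak and 31 bp at a minimum of 30. Genes ranked high for ARR10_BA only numbered 8 in the top 5%, 12 with no target in ARR1_BA and 78 when whole peaks were assigned, an alternative added after seeing the data. For ARR1_BA only they numbered 46 with every peak and 17 in the top 5%. The genes themselves changed more than their number. For ARR10_BA only, 14 of the 29 genes with every peak and 21 of the 42 at 1 kb were among the 33. For ARR1_BA only, 26 of the 46 with every peak and 22 of the 33 at 1 kb were among the 30. Peaks of ARR10_BA alone were in ARR1 after 3 days in 63.5% at a minimum of 16 there, 53.5% at reciprocal overlap and 57.3% where ARR1_BA had no peak of any score. Peaks of ARR1_BA alone were in ARR10_m in 33.3%, 72.1% and 85.5% under the same changes. The motif shares for shared peaks, ARR10_BA alone and ARR1_BA alone were 51.4%, 49.5% and 36.8% in 100 bp, and 92.0%, 91.9% and 87.3% for the core AGAT. No paired analysis was possible because each factor has 1 combined list and no test was made. Without read counts, peaks just under the cutoff cannot be told from peaks missed for depth.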

Other observations

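Further members of the gene lists had high scores in both lists. LOG2, for an enzyme that activates cytokinin, scored 100.96 in ARR10_BA and 70.81 in ARR1_BA, and CTR1, the kinase that represses ethylene responses, 79.56 and 62.87. TIR1, the auxin receptor gene, had 67.66 and 51.69, and PIF4, for a bHLH factor of light and temperature responses, 59.72 and 41.86. The score was higher in ARR1_BA for PIF7, a relative of PIF4, at 75.61 in ARR10_BA and 80.03 in ARR1_BA, and for IAA16, an Aux/IAA gene, at 87.62 and 92.46. It was also higher there for the clock genes CCA1 (70.95 in ARR10_BA and 85.84 in ARR1_BA), GI (76.49 and 81.31), LUX (69.5 and 72.62) and PRR9 (44.87 and 78.12), and for the jasmonate repressor gene JAZ1 (44.03 and 67.6). These genes were chosen after their values were seen, and the differences were not tested.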
